A study of Mus musculus with 3 samples.

Results

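The pluripotent-like cells of a mouse tendon differentiation course were compared between D6 and D10. They were the cells with cluster code 2 in the D6 paraxial mesoderm (PM) library, 1038 of its 5954 cells, and the cells with cluster code 3 in the D10 culture library, 1088 of its 7821 cells. Together these were 2126 of the 15827 cells of the series, whose other library, from the E14.5 tail, was used here only to check what the code holds. The codes were those that the authors had assigned to each cell.

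The course started from mESCs that carried the ScxGFP reporter, a transgene that marks tendon cells. 3 ScxGFP positive lines had been used, and the line behind each library was not stated in the sources used here. The mESCs had been kept on feeder cells with LIF, and were then aggregated to embryoid bodies in serum-free medium from D0 to D2. Both groups had received LDN-193189 at 500 nM, which inhibits BMP receptors, from D0 to D6, and 5 μM CHIR, an activator of WNT signaling, from D2 to D6. The D6 cells were collected at that point. The D10 cells had in addition received 10 ng/mL TGFβ1, 100 nM SAG, an agonist of hedgehog signaling, and 10 ng/mL FGF2 from D6 to D10. Each stage was 1 library of a whole culture, so that the stage, the added factors, the line and the library cannot be told apart. The sample labels name embryoid bodies as the source at D6 and a monolayer at D10, whereas the described protocol limits embryoid bodies to the first days, so the culture form at D6 is uncertain. No test between the groups was possible. That the D10 cells descended from cells like those at D6 was not measured.

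Pluripotent stem cells share a core set of transcription factors, with *Pou5f1*, *Sox2* and *Nanog* at its centre, and pass through successive states. In the naive state, that of the early epiblast and of mESCs with LIF, factors such as *Klf4*, *Esrrb* and *Tfcp2l1* support self-renewal, and in the early epiblast DNA methylation is low. On the way to lineage commitment the naive factors go down, and *Otx2*, *Pou3f1*, *Fgf5* and the *de novo* DNA methyltransferases come up in what is called the formative and then the primed state. WNT activation favors the naive state in mESCs, while FGF and Nodal/Activin signaling favor the later ones.

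Levels are given as CPM, for which the unique molecular identifiers (UMIs) of each gene were added up within a group and scaled to 1000000 UMIs of that group. A UMI marks a captured transcript. Parentheses hold 95% intervals that cover counting error only. They are exact, and were taken from the Poisson distribution for levels, from the binomial distribution given both counts for ratios, and after Clopper and Pearson for shares. The D6 cells held 12179372 UMIs, with a median of 11208 per cell and a range from 650 to 27065. The D10 cells held 11727074 UMIs, with a median of 10369.5 and a range from 2325 to 20902. The medians of detected genes were 3869.5 and 3816, those of the mitochondrial share were 2.03% and 1.74%, and 38 and 26 cells were called as doublets. The medians were alike, but 120 of the 1038 D6 cells and 7 of the 1088 D10 cells had under 3000 UMIs. The libraries shared 10 cell barcodes, and the groups shared 0.

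The label was checked against marker genes in each library. *Pou5f1*, the central pluripotency factor, had 459.7 CPM (448 to 472) in the D6 cells and 5.12 CPM in the other D6 cells. *Dppa5a*, an RNA-binding protein of the early epiblast, had 6302 CPM (6258 to 6347) and 36.6 CPM, respectively. In the D10 library *Pou5f1* had 545 CPM (532 to 559) in the cells of code 3 and 76.5 CPM in the others, and *Dppa5a* had 4021 CPM (3984 to 4057) and 199 CPM. Because the codes come from clustering of the same counts, these levels describe the groups and are no test of them. The levels in the other D10 cells were carried mainly by codes 5 and 6, which are described further on. All 22 genes of the core list passed a limit of 10% of cells in both groups, and the name pluripotent-like rests on these markers. Some germ cell genes, given further on, were present in both groups as well. The deposited codes carry no cell type names, and the study's text describes the D10 cluster of this size as fibrocartilage. It also reports another cluster, annotated as skin in the tail, whose culture cells expressed *Nanog*. The study proposes that those culture cells may be residual pluripotent cells. In the deposited D10 file *Col2a1*, the main cartilage collagen, had 26.9 CPM (24.1 to 30.1) in code 3 and 2271 CPM in code 4, where *Acan*, *Matn4*, *Col9a1*, *Col11a1* and *Sox9*, chosen after their values were seen, were highest too. The 49 E14.5 tail cells that carry code 3 had 3.33 CPM of *Pou5f1*, from 4 UMIs, and 2687 CPM of *Krt14*, a keratin of skin, so the code does not name the same cells in both libraries.

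Of 24738 genes present in both files, 9179 were assessed, namely those with a UMI in 10% or more of the D6 or of the D10 cells. Among them, 380 (4.14%) were at least 2-fold higher at D10 and 275 (3.0%) at least 2-fold higher at D6, so that 655 (7.14%) passed this limit in either direction. The median log2 ratio of D10 over D6 was 0.04 over the 9179 genes. All counts below use this limit of 2-fold, which is a size and not a test, and the members of each list are read against these shares. A gene that passed the detection filter through the group in which it was high had to differ to some degree, as did 473 genes with the D6 cells alone and 464 with the D10 cells alone, so counts and medians over the assessed genes are descriptions. Without the filter 23603 genes had a UMI, of which 2495 (10.6%) were at least 2-fold higher at D10 and 1834 (7.77%) at D6. Medians of log2 ratios are of D10 over D6, and a negative median means higher at D6.

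**Figure D1:**
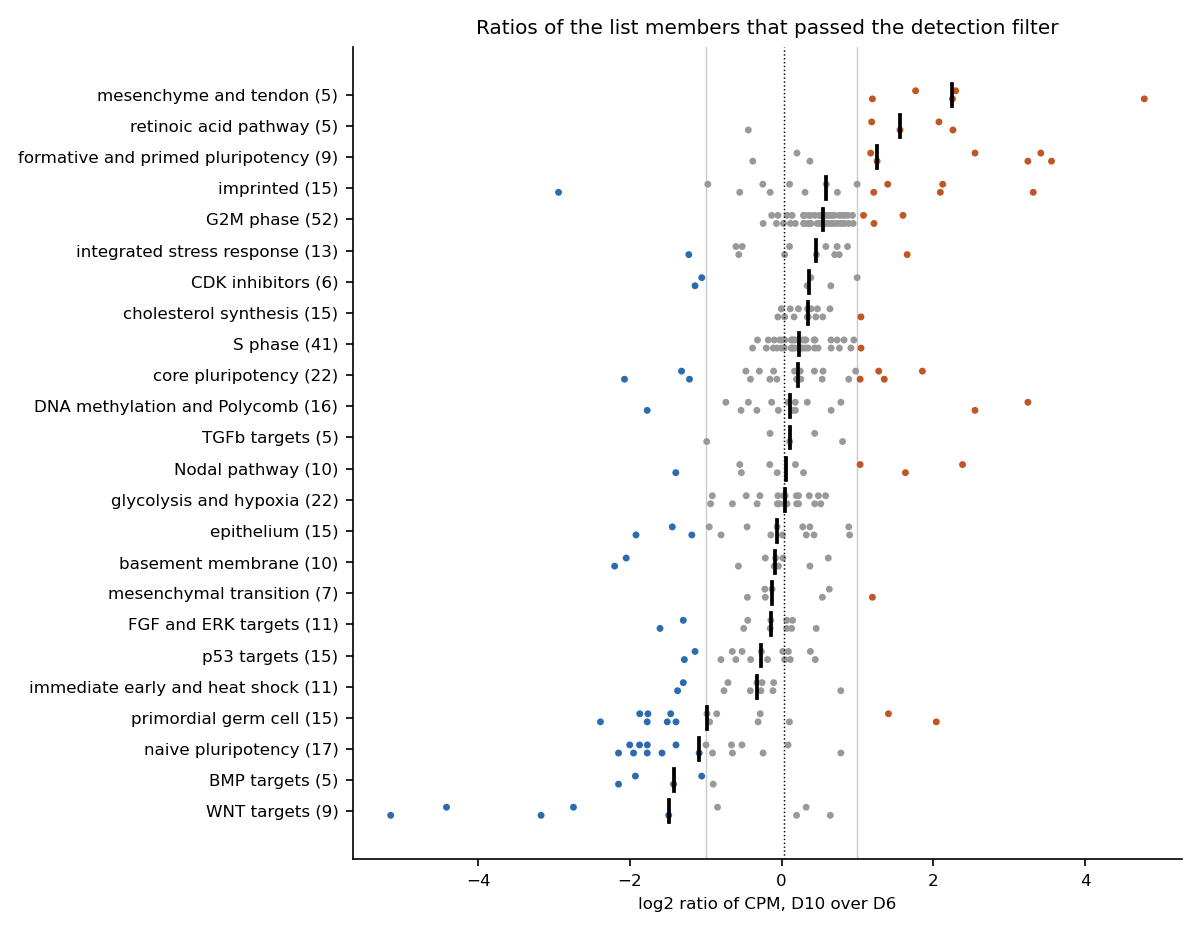
Log2 ratio of CPM, D10 over D6, for the members of each gene list that passed the detection filter (number in parentheses), for lists with at least 5 such members. Each point is a gene, colored where it was at least 2-fold higher at D10 (orange) or D6 (blue). Black bars are list medians, and the dotted line is the median of all 9179 genes, 0.04. The medians of the WNT targets (-1.49) and BMP targets (-1.42) lie furthest to the left, and those of the mesenchyme and tendon (2.25) and retinoic acid (1.56) genes furthest to the right. Without the filter the medians of these lists were -1.86, -1.03, 2.25 and -0.03, in the same order. All 5 mesenchyme and tendon members shown passed the filter through the D10 cells alone.

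The core pluripotency genes were present in both groups and shared no direction. All 22 members were assessed, of which 4 were at least 2-fold higher at D10 and 3 at D6, where 4.14% and 3.0% of all genes were, and their median log2 ratio was 0.22. *Pou5f1* had 459.7 and 545 CPM at D6 and D10, a 1.19-fold (1.14 to 1.23) difference. *Sox2*, its partner on DNA, had 496 CPM (483 to 509) at D6 and 373 CPM (362 to 384) at D10. *Sall4*, a zinc finger factor of the same network, had 164 and 148 CPM. These 3 genes thus differed by less than 2-fold. *Nanog*, in contrast, had 326 CPM (316 to 337) at D6 and 131 CPM (124 to 137) at D10, and was 2.50-fold (2.35 to 2.65) higher at D6. *Tdh*, the threonine dehydrogenase on which the growth of mESCs depends, had 465 CPM (453 to 477) and 111 CPM (105 to 117), and was 4.20-fold (3.96 to 4.47) higher at D6. *Alpl*, the alkaline phosphatase used to stain mESC colonies, was 2.32-fold (2.17 to 2.49) higher at D6. Besides *Nanog*, the core genes past the limit at D6 thus encoded enzymes.

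The 4 core genes higher at D10 were of other kinds. *Phc1*, a Polycomb subunit, had 71.4 CPM (66.7 to 76.3) at D6 and 258 CPM (249 to 268) at D10, a 3.62-fold (3.36 to 3.91) difference. *Lin28a*, which blocks the maturation of let-7 miRNAs, had 24.8 CPM (22.1 to 27.8) and 63.4 CPM (58.9 to 68.1), and its paralog *Lin28b*, on a list added after the data were seen, had 10.8 CPM (8.99 to 12.8) and 25.9 CPM (23.1 to 29.0), a call lost with thinned cells. *Fgf4*, the FGF ligand that mESCs secrete, was 2.43-fold (2.26 to 2.61) higher at D10, a call lost with D10 codes 3, 5 and 6 together. *Tdgf1*, the co-receptor of Nodal, was 2.05-fold (1.95 to 2.15) higher, a call that was lost when log2 ratios were centred on their median and with those codes together. *Utf1*, a chromatin factor of pluripotent cells, lay just outside the limit, with 388 and 764 CPM and a ratio of 1.97 (1.90 to 2.04). At 3000 UMIs per cell, *Utf1* was detected in 53.5% (50.2 to 56.8) of 918 D6 cells and 81.7% (79.2 to 83.9) of 1081 D10 cells, while *Nanog* was detected in 51.4% (48.1 to 54.7) and 28.7% (26.0 to 31.5). The share of cells with *Nanog* was thus lower at D10, whereas that with *Utf1* was higher. All shares at this depth leave out the 120 D6 cells and 7 D10 cells with fewer UMIs. In the other cells, whose median depths were 7801.5 and 5170 UMIs before thinning, *Nanog* was found in 0.819% at D6 and 2.20% at D10, and without thinning in 75% and 54.9% of the pluripotent-like cells.

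**Figure D2:**
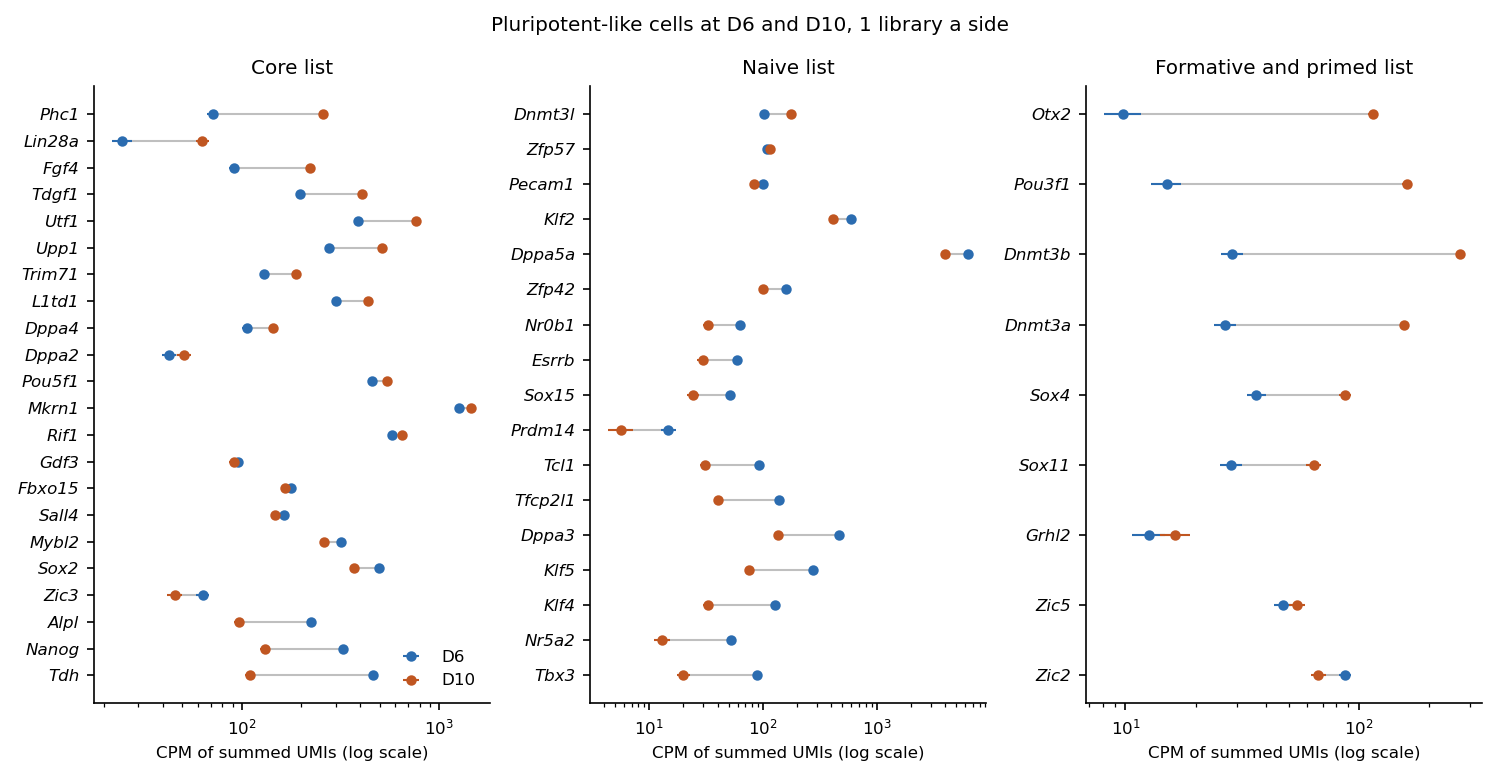
Level of each assessed gene of the core, naive, and formative and primed lists, in CPM on a log axis, at D6 (blue) and D10 (orange). Bars are exact Poisson 95% intervals and cover counting error only, and genes are sorted by their ratio. *Pou5f1* has 459.7 and 545 CPM, *Tbx3* 88.6 and 20.0 CPM, and *Otx2* 9.77 and 115 CPM.

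Most naive pluripotency genes were lower at D10. Of 18 members 17 were assessed, 1 of them through the D6 cells alone, and 9 were higher at D6 and 0 at D10. Their median log2 ratio was -1.09, and 15 of the 17 had a ratio below 1. *Tbx3*, a T-box factor that supports self-renewal, had 88.6 CPM (83.4 to 94.0) at D6 and 20.0 CPM (17.5 to 22.7) at D10, and was 4.44-fold (3.85 to 5.14) higher at D6. *Nr5a2*, a nuclear receptor that activates *Pou5f1*, was 4.01-fold (3.36 to 4.81) higher. *Klf4* and *Klf5*, Krüppel-like factors of the naive network, had 128 and 33.0 CPM and 278 and 75.9 CPM at D6 and D10, and were 3.87-fold (3.46 to 4.34) and 3.66-fold (3.40 to 3.95) higher at D6. *Tfcp2l1*, a target of LIF and WNT signaling, had 139 CPM (132 to 146) and 40.7 CPM (37.1 to 44.5). *Dppa3*, which protects the genome from methylation, had 463 CPM (451 to 475) and 135 CPM (129 to 142), a 3.42-fold (3.23 to 3.61) difference. The remaining members at least 2-fold higher at D6 were *Tcl1*, a kinase coactivator, *Prdm14*, a repressor of methyltransferase genes, and *Sox15*, at 2.98-fold, 2.63-fold and 2.13-fold, and *Sox15* lost its call with the mean of single-cell CPM and with thinned cells.

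The difference was not of the same size for every naive gene. *Esrrb*, an orphan nuclear receptor, lay just outside the limit, with 58.9 and 29.5 CPM and a ratio of D10 over D6 of 0.501 (0.44 to 0.571). *Klf2*, a further Krüppel-like factor, had 596 CPM (583 to 610.1) and 415 CPM (403 to 427), and *Zfp42* (Rex1), the gene behind the common naive reporter, had 158 CPM (151 to 165) and 100.03 CPM (94.4 to 106). *Dppa5a* had 6302 and 4021 CPM. These 3 were 1.44- to 1.58-fold higher at D6. *Zfp57*, which guards imprints, differed by 1.06-fold, and *Dnmt3l*, a cofactor of the methyltransferases, was 1.72-fold (1.60 to 1.85) higher at D10. Apart from these 2, the assessed naive genes were lower at D10 by factors between 1.18 for *Pecam1* and 4.44 for *Tbx3*. The member that did not pass the filter was *Gbx2*, with 6.08 and 3.41 CPM.

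The shares of detecting cells fell with the levels for *Klf5*, *Dppa3* and *Klf4*, and not for *Dppa5a*. At 3000 UMIs per cell *Klf5* was detected in 54.4% (51.1 to 57.6) of the D6 cells and 20.0% (17.6 to 22.5) of the D10 cells, where the other cells had 9.38% and 5.73%. *Dppa3* was detected in 54.6% (51.3 to 57.8) and 24.6% (22.1 to 27.3), with 0.496% and 0.591% in the other cells. *Klf4* was detected in 24.8% (22.1 to 27.8) and 9.90% (8.18 to 11.8), and in the D10 library its share in the other cells, 9.28%, was as high as in the pluripotent-like cells. The D10 share of *Klf4* is therefore read as no higher than in the rest of the culture. *Dppa5a* was found in 94.9% (93.2 to 96.2) and 97.5% (96.4 to 98.3), so that nearly every cell of both groups held it. Without thinning the shares of *Klf5* were 78.6% and 40.6%.

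Many genes of the formative and primed states were higher at D10. Of 15 members 9 were assessed, 1 of them through the D10 cells alone, and 6 were higher at D10 and 0 at D6, with a median log2 ratio of 1.26. Over all 15, without the filter, 10 were higher at D10 and 0 at D6. *Otx2*, the homeobox factor that redirects *Pou5f1* to new enhancers, had 9.77 CPM (8.09 to 11.7) at D6 and 115 CPM (109 to 121) at D10, and was 11.8-fold (9.76 to 14.3) higher. *Pou3f1* (Oct6), a POU factor of the epiblast, had 15 CPM (12.9 to 17.4) and 161 CPM (153 to 168), a 10.7-fold (9.18 to 12.5) difference. The *de novo* methyltransferase genes followed, with 28.7 CPM (25.8 to 31.9) and 273 CPM (263 to 282) for *Dnmt3b* and 26.8 CPM (23.9 to 29.8) and 157 CPM (149.6 to 164) for *Dnmt3a*, which were 9.50-fold and 5.86-fold higher. *Sox4* and *Sox11*, SoxC factors that many differentiating cells use, were 2.39-fold and 2.26-fold higher. The zinc finger genes *Zic2* and *Zic5*, with 87.4 and 67.2 CPM and 47.3 and 54.4 CPM, and the epithelial factor *Grhl2*, with 12.6 and 16.4 CPM, differed by less than 2-fold.

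Some of these genes were also present in the other cells, and the part of free RNA in their levels was not tested. *Otx2* had 76.3 CPM in the other D6 cells, so that the 9.77 CPM of the pluripotent-like cells were 12.8% of it. In the D10 library the order was the opposite, with 18.9 CPM in the other cells. *Dnmt3b* had 24.4 and 120.3 CPM and *Dnmt3a* 54.9 and 112 CPM in the other cells of D6 and D10. The D10 value of *Dnmt3b* came mostly from code 5, with 674 CPM, and code 6, with 178 CPM, which hold core pluripotency transcripts as well. D10 codes 1, 2 and 4 held 4.40, 4.20 and 4.81 CPM of it. D6 codes 1, 3, 4, 5 and 6 held 30.6, 38.4, 12.8, 2.20 and 14.8 CPM. *Sox4* and *Sox11* were higher in the other cells of both libraries, at 399 and 385 CPM and 168 and 373 CPM. *Fgf5*, the classic marker of the primed epiblast, did not pass the detection filter, with 2.87 CPM (2.0 to 4.0) and 14.4 CPM (12.3 to 16.8), and its level in the other D6 cells was 49.0 CPM. At 3000 UMIs per cell, *Otx2* was detected in 2.29% (1.42 to 3.48) of the D6 cells and 23.9% (21.4 to 26.5) of the D10 cells. *Dnmt3b* was detected in 7.95% (6.28 to 9.89) and 38.3% (35.4 to 41.3), and *Pou3f1* in 4.25% (3.04 to 5.76) and 25.5% (23.0 to 28.2), with 0.67% and 5.89% in the other cells. Each of these 3 genes was thus detected in a minority of the D10 cells at this depth.

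Counted per cell at 3000 UMIs, a mean of 5.38 of 18 naive genes (SD over cells 2.06) was detected in the 918 D6 cells and 3.77 (SD 2.04) in the 1081 D10 cells. The medians were 5 and 3. For the formative and primed genes the means were 0.807 (SD 0.901) and 2.05 (SD 1.61) of 15, and the medians 1 and 2. No formative or primed gene was detected in 45.2% of the D6 cells and 18.5% of the D10 cells. The core genes had means of 8.96 (SD 3.32) and 10.1 (SD 2.89) of 22. The groups overlapped on each of these measures. In the other cells the naive mean was 0.427 at D6 and 0.640 at D10, whereas the formative and primed mean was 1.92 and 2.05.

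**Figure D3:**
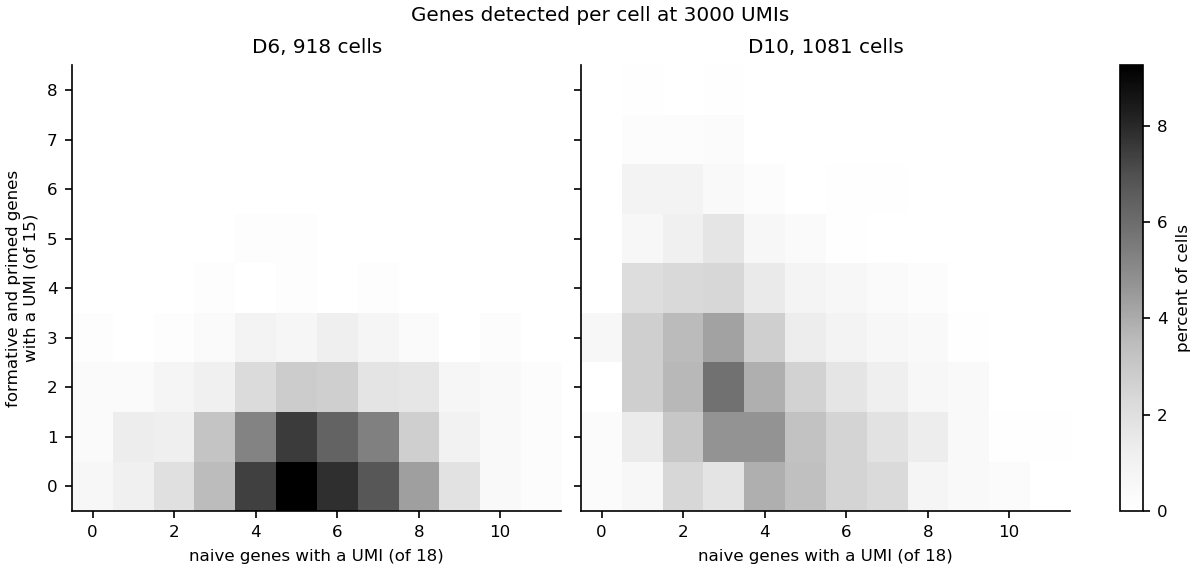
Number of naive genes (x axis, of 18) and of formative and primed genes (y axis, of 15) with a UMI in each cell thinned to 3000 UMIs, for 918 D6 cells and 1081 D10 cells. The gray scale gives the percent of the cells of a group. The D6 cells lie along the bottom around 5 naive genes, and the D10 cells are shifted up and to the left, with medians of 3 naive and 2 formative and primed genes.

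Naive and formative transcripts were detected together in some D10 cells. Of the 1081 D10 cells, 142 (13.1%, 11.2 to 15.3) held UMIs of both *Klf2* and *Otx2*, where the product of their shares is 13.7%. *Dnmt3b* was found together with *Klf5* in 4.81% (3.61 to 6.26), against a product of 7.65%. *Otx2* and *Pou3f1* were found together in 8.42% (6.83 to 10.2), against a product of 6.09%. *Dppa3* and *Otx2* shared 4.81% (3.61 to 6.26) of the cells, against 5.87%. These shares are descriptions of 1 library. Split by *Dppa3* instead, the 266 D10 cells with a UMI of it had 57.6 CPM (42.2 to 76.9) of *Pou3f1* against 172 CPM (156 to 189) in the 815 without. Their *Dnmt3b* stood at 127 CPM (103 to 154) against 288 CPM (267 to 310.0), and their *Nanog* at 207 CPM (176 to 241) against 113 CPM (99.96 to 127). D10 cells with *Dppa3* thus held less *Pou3f1* and *Dnmt3b* and more *Nanog*, whereas the intervals of *Otx2* overlapped, at 90.2 CPM (70.6 to 114) and 115 CPM (102 to 129.6). At D6 the 501 cells with *Dppa3* held more *Nanog* and *Klf2* than the 417 without, and the intervals of *Pou3f1* and *Dnmt3b* overlapped. Those D6 cells held less of the naive genes *Klf4*, *Tbx3* and *Tfcp2l1*. *Klf4* stood at 102 CPM (86.3 to 119) against 189 CPM (166 to 215).

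The D10 cells with a UMI of *Otx2*, 258 in number, were set beside the 823 without, all at 3000 UMIs. *Pou3f1* had 204 CPM (174 to 239) in the first and 125 CPM (112 to 139.9) in the second. *Dnmt3a* had 200.3 CPM (170.0 to 234) and 137 CPM (123 to 152). *Dppa3* was lower in the cells with *Otx2*, at 95.6 CPM (75.1 to 120.0) against 155 CPM (139.6 to 171), and so was *Tbx3*, at 14.2 CPM (7.09 to 25.4) against 32.0 CPM (25.3 to 39.9). As the split by *Dppa3* gave overlapping intervals of *Otx2*, no order between *Dppa3* and *Otx2* is read from these splits. *Pou5f1* had 593 CPM (540.0 to 649.8) and 533 CPM (505 to 563), and *Esrrb* 36.2 CPM (24.0 to 52.3) and 30.8 CPM (24.3 to 38.5), with intervals that overlap. *Scx*, a marker of another cell type, was lower in the cells with *Otx2*, at 19.4 CPM (10.8 to 32.0) against 72.1 CPM (61.9 to 83.5). Its part in these differences was not tested. At D6 only 21 cells held *Otx2*, and these had more *Spink1*, an endoderm gene, at 127 CPM (54.8 to 250.2) against 20.8 CPM (15.7 to 27.0), while their *Pou3f1* interval (0.402 to 88.4 CPM) held the level of the others. As cells share 1 library, these intervals hold for this library alone.

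The D10 library held further cells with core transcripts. Where the codes are compared, the genes were chosen after their values were seen. Code 5, with 556 cells, had 351 CPM of *Pou5f1*, and code 6, with 435 cells, had 346 CPM. In the D6 library no cluster other than code 2 reached such levels. Against the D6 cells, code 5 had a median log2 ratio of -5.04 over the naive list, with 17 of 17 at least 2-fold lower, and of 2.86 over the formative and primed list. Over the core list its median was -1.10, with 11 of 22 genes at least 2-fold lower and 2 at least 2-fold higher. Its *Dnmt3b* stood at 674 CPM, its *Pou3f1* at 345 CPM and its *Fgf5* at 44.2 CPM, and its *Klf4* at 4.79 CPM, *Esrrb* at 0.449 CPM and *Dppa5a* at 376 CPM. The cells of code 3 thus lay between the D6 cells and those of code 5 in the levels of *Klf4*, *Esrrb*, *Dppa5a*, *Pou3f1*, *Dnmt3b* and *Fgf5*, whereas *Otx2* was higher in code 3, at 115 CPM, than in code 5, at 71.0 CPM. *Dnmt3a*, *Utf1*, *Tdgf1*, *Stra8*, *Epcam* and *Pou5f1* were highest in code 3 among these cells too, so that no common order held over the genes. *Otx2* was not particular to these cells, since D10 code 8, with 7.80 CPM of *Pou5f1*, held 165 CPM. Some naive genes were not particular to them either. D10 code 13, with 43 cells, held 3197 CPM of *Dppa5a*, 505 of *Klf5*, 206 of *Klf4* and 141 of *Tbx3*. That code had 68.0 CPM of *Pou5f1*, 0 UMIs of *Nanog* and *Sox2*, and 454 CPM of *Sox17*. Code 6 had a naive median of -1.37, but its median depth was 2399 UMIs, and its mesenchyme and tendon genes summed to 2265 CPM against 299.7 in code 3. When codes 3, 5 and 6 were pooled as the D10 group, an alternative added after the data were seen, 100 of the 109 named genes past the limit kept their call.

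**Figure D4:**
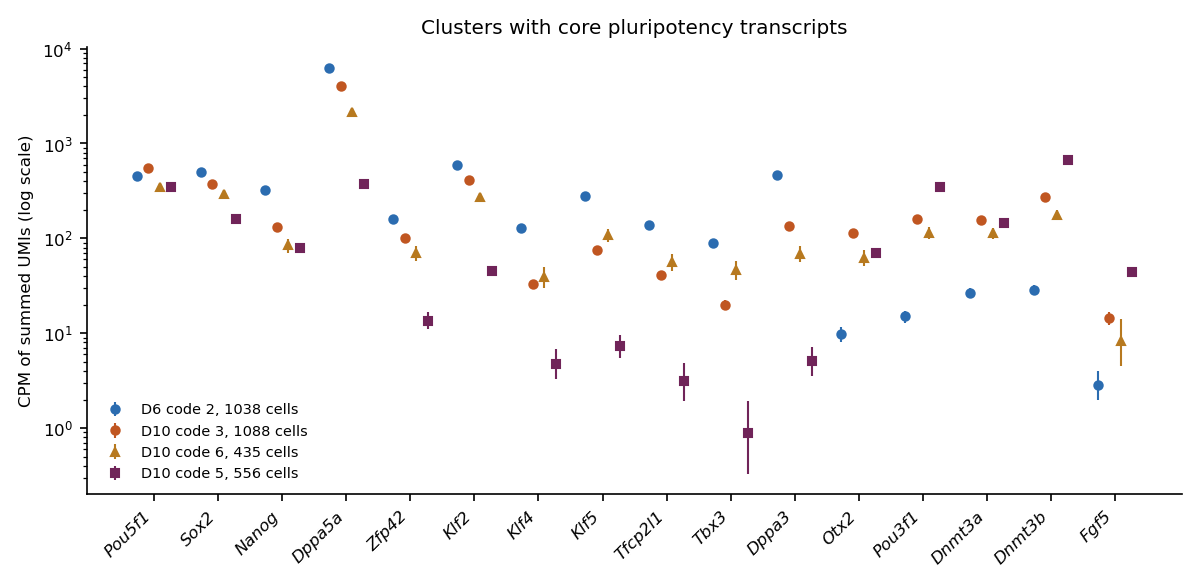
Levels of 16 pluripotency genes in CPM, on a log axis, in D6 code 2 and in the 3 D10 clusters with the most *Pou5f1*, with exact Poisson 95% intervals. *Pou5f1* lies between 346 and 545 CPM in all 4, whereas *Klf4* goes from 128 CPM at D6 to 33.0 CPM in D10 code 3 and 4.79 CPM in D10 code 5.

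Several target genes of WNT signaling were lower at D10, and *Lef1*, *Tcf7* and *Ccnd1* were not. Of 15 members 9 were assessed, 6 of them through the D6 cells alone, and 5 were higher at D6 and 0 at D10, with a median log2 ratio of -1.49. Over all 15, without the filter, 9 were higher at D6 and 0 at D10, and the median was -1.86. CHIR was added until D6 and is not among the factors added later. *Sp5*, a direct target that restrains other WNT targets, had 57.7 CPM (53.5 to 62.1) at D6 and 1.62 CPM (0.975 to 2.53) at D10, and was 35.6-fold (22.6 to 59.5) higher at D6. *Cdx1*, a caudal-type factor, had 42.0 CPM (38.4 to 45.8) and 1.96 CPM (1.24 to 2.94), a 21.4-fold (14.1 to 34.1) difference. *Axin2*, the feedback inhibitor that is the common readout of the pathway, was 9.01-fold (6.47 to 12.9) higher at D6, with 30.0 and 3.33 CPM. *Notum*, a secreted inhibitor of WNT ligands, was 6.70-fold (4.46 to 10.4) higher, and *Tnfrsf19* 2.81-fold (2.22 to 3.58). *Lef1* and *Tcf7*, which encode the DNA-binding partners of β-catenin, and *Ccnd1* differed by less than 2-fold, with 63.3 and 72.6 CPM, 51.8 and 80.8 CPM and 55.8 and 69.8 CPM.

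*T* and *Dkk1* did not pass the filter. *T* (Brachyury), a factor of the primitive streak, had 88 UMIs at D6 and 3 at D10, or 7.23 and 0.256 CPM, a 28.2-fold (9.35 to 139.6) difference. *Dkk1*, a secreted WNT antagonist, had 18.4 and 0.938 CPM, a 19.6-fold (10.7 to 39.8) difference. The other D6 cells, which had been exposed to CHIR too, held 213 CPM of *Sp5*, 40.5 of *Axin2*, 26.9 of *Notum* and 319.7 of *Dkk1*, and the other D10 cells held 1.8, 5.11, 2.59 and 16.4. These genes were therefore lower at D10 in the rest of the culture as well. For *Cdx1* the order was different, since the other D6 cells held 7.54 CPM, less than the pluripotent-like cells. The *Dkk1* level of the D6 cells was 5.75% of that in the other D6 cells and the *Sp5* level 27.0%, and the part of free RNA in them was not tested. At 3000 UMIs per cell *Sp5* was detected in 12.9% (10.8 to 15.2) of the D6 cells and 0.463% (0.15 to 1.08) of the D10 cells.

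**Figure D5:**
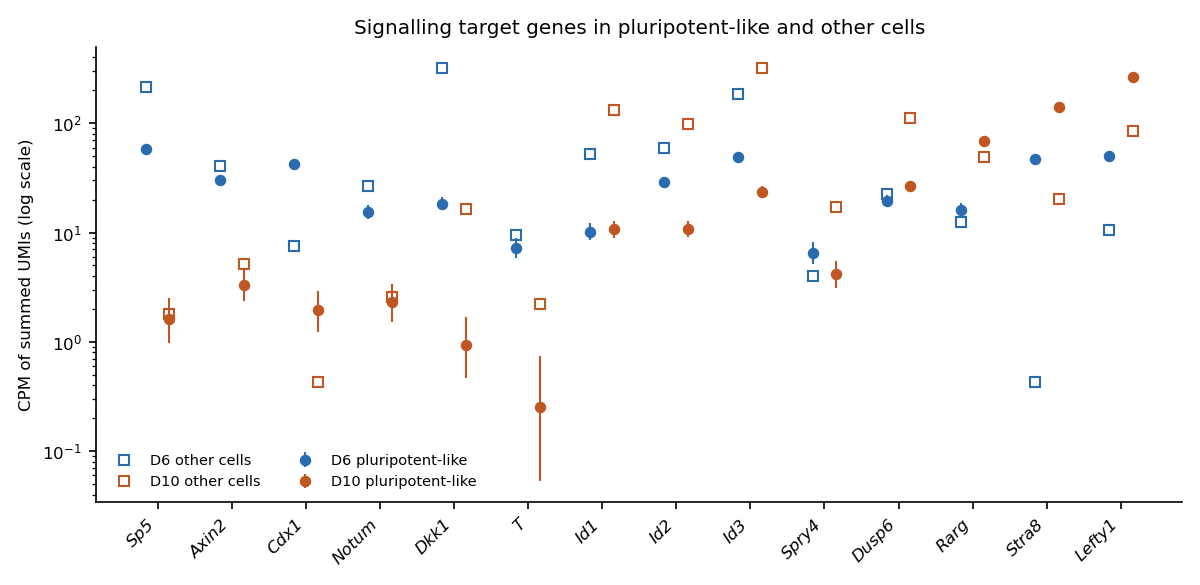
Levels of target genes of WNT (*Sp5* to *T*), BMP (*Id1* to *Id3*), FGF (*Spry4*, *Dusp6*), retinoic acid (*Rarg*, *Stra8*) and Nodal (*Lefty1*) signaling in CPM, on a log axis. Filled circles are pluripotent-like cells with exact Poisson 95% intervals, open squares are the other cells of the same library. *Sp5* is at 57.7 and 1.62 CPM in the pluripotent-like cells of D6 and D10, and at 213 and 1.8 CPM in the other cells. The retinoic acid genes *Rarb* and *Cyp26a1*, whose levels were lower at D10, are not shown.

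The letters of the motif bound by TCF and LEF factors were looked up in the 250 bases before the start sites of these genes, in the RefSeq promoters of GRCm38.p6. The motif searched was CTTTGA on either strand, so that TCAAAG counted as well. 10 of the 15 list members had an entry, with 18 start sites, of which 6 held the motif, where 13.8% of all 32851 start sites did. The windows of *Sp5*, *T* and *Dkk1*, 3 of the 6 genes with a match, are shown because these genes had the largest ratios among the 6, and were chosen after the search. Capitals mark the motif, which begins 204 and 104 bases before the start of *Sp5*, 234 before that of *T*, and 174 and 117 before that of *Dkk1*. A match is a description of the sequence only. The window of *Axin2* did not hold these letters, and *Cdx1* and *Notum* had no entry. The genome build of the counts was not given in the sources used here.
*Sp5* (chr2:70474673-70474922, plus strand): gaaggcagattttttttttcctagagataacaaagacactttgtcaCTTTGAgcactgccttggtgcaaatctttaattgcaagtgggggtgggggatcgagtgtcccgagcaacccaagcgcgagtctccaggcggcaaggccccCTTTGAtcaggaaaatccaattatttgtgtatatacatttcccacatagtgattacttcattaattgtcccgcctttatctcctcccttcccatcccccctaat
*T* (chr17:8434173-8434422, plus strand): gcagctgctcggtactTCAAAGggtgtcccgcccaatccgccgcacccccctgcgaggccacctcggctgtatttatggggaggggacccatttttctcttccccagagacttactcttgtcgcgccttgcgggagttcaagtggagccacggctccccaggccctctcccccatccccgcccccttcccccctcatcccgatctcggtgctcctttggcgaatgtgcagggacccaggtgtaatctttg
*Dkk1* (chr19:30549497-30549746, minus strand): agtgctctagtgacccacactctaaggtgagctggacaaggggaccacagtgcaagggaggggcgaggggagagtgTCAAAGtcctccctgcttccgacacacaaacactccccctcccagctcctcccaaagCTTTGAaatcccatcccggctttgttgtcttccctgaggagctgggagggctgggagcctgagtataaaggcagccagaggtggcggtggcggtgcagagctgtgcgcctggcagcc

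Most genes of the primitive streak, the site of mesoderm formation, did not pass the filter in either group. Of 20 members 19 were in both files and 3 were assessed, through the D6 cells alone, and these 3, *Sp5*, *Cdx1* and *Eomes*, were higher at D6. Over the 19, without the filter, 14 were higher at D6 and 2 at D10. *Eomes*, a T-box factor of mesendoderm, had 23.4 CPM (20.8 to 26.3) and 7.33 CPM (5.87 to 9.06), and the other D6 cells held 20.5 CPM. *Cdx2*, a caudal-type factor that *Cdx1* resembles, had 8.62 CPM (7.05 to 10.4) at D6 and 0.682 CPM (0.295 to 1.34) at D10, with 0.227 CPM in the other D6 cells. *Mixl1* had 3 UMIs and 1 UMI in all, which allows no ratio. The caudal-type genes were thus higher in the pluripotent-like cells than in the rest of the D6 culture.

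The Nodal pathway, which supports the later pluripotent states, had no common direction. Of 13 members 10 were assessed, 2 of them through the D6 cells alone and 1 through the D10 cells alone, of which 3 were higher at D10 and 1 at D6, with a median log2 ratio of 0.06. The ligand *Nodal* had 53.1 CPM (49.1 to 57.4) and 64.9 CPM (60.4 to 69.7), and *Smad2*, which carries its signal, had 37.0 and 35.6 CPM. The feedback inhibitor *Lefty1* had 50.7 CPM (46.7 to 54.8) at D6 and 265 CPM (256 to 274) at D10, and was 5.23-fold (4.79 to 5.71) higher, while its neighbor in function *Lefty2* had 65.2 and 58.5 CPM. *Pcsk6*, a protease that activates Nodal, was 2.63-fold (2.12 to 3.28) higher at D6, a call lost with the mean of single-cell CPM and with thinned cells. *Lefty1* and *Lefty2*, 2 targets of the same pathway, hence differed in their ratios, 5.23 and 0.897 of D10 over D6.

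Several BMP targets were lower at D10. Of 12 members 5 were assessed, 3 of them through the D6 cells alone, and 4 were higher at D6 and 0 at D10, with a median log2 ratio of -1.42. *Id2*, *Id3* and *Id4*, inhibitors of basic helix-loop-helix factors, had 29.1 and 10.8 CPM, 48.7 and 23.4 CPM and 20.1 and 5.29 CPM at D6 and D10. *Id1* did not pass the filter and had 10.2 and 10.7 CPM, a ratio of 1.06 (0.817 to 1.36). The fourth, *Tbx3*, is also a naive gene. LDN-193189 was added until D6 and is not among the factors added later. In the other cells *Id2* and *Id3* went the opposite way, from 59.5 and 185 CPM at D6 to 99.0 and 323 CPM at D10. The call of *Id3* was lost with the mean of single-cell CPM, and with D10 codes 3, 5 and 6 together its log2 ratio turned to 0.35. *Id2* lost its call under that grouping as well.

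Targets of FGF and ERK signaling differed by less than 2-fold in most cases. FGF2 was added from D6. Of 13 members 11 were assessed, 2 of them through the D6 cells alone, of which 0 were higher at D10 and 2 at D6, with a median log2 ratio of -0.14. *Dusp6* and *Spry2*, feedback inhibitors of ERK, had 19.5 and 26.7 CPM and 26.8 and 18.9 CPM, and *Etv5*, an ETS factor, had 90.2 and 81.8 CPM. *Phlda1* and *Egr1* were 3.04-fold (2.44 to 3.8) and 2.46-fold (2.11 to 2.86) higher at D6, and *Phlda1* lost its call with D10 codes 3, 5 and 6 together. *Fgfr1*, the main FGF receptor of these cells, had 51.3 and 56.7 CPM, whereas the ligand *Fgf4* was 2.43-fold higher at D10. The other cells had 22.5 CPM of *Dusp6* at D6 and 112 CPM at D10, and 17.4 and 18.5 CPM of *Etv5*.

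The assessed targets of the other factors added from D6, TGFβ1 and SAG, stayed within the limit of 2-fold, and some low genes did not. Of 12 TGFβ targets 10 were in both files and 5 were assessed, with 0 higher in either group. Over the 10, without the filter, 3 were higher at D10 and 0 at D6, with a median log2 ratio of 0.54. *Smad7*, the feedback inhibitor of the pathway, had 131 CPM (124 to 137) at D6 and 65.8 CPM (61.3 to 70.6) at D10, and *Pmepa1*, a further inhibitor, had 31.1 CPM (28.1 to 34.4) and 54.3 CPM (50.2 to 58.7), where the other cells went from 71.3 to 624 CPM. Of 9 hedgehog genes 2 were assessed, and over the 9, without the filter, 3 were higher at D10 and 1 at D6, with a median of 0.59. *Ptch1*, the receptor that is itself a target, had 54.8 CPM (50.7 to 59.1) and 92.2 CPM (86.8 to 97.8), a 1.68-fold (1.53 to 1.86) difference, and the other cells had 76.6 and 213 CPM. The LIF and STAT3 genes, a list added after the data were seen, had 8 of 9 assessed and 0 past the limit. *Socs3*, the feedback inhibitor of LIF signaling, had 27.6 and 20.6 CPM, and *Lifr*, the receptor, 24.2 and 22.7 CPM.

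Some retinoic acid genes were higher at D10. No retinoid is named among the added factors. Of 14 members 5 were assessed, 1 of them through the D10 cells alone, and 4 were higher at D10 and 0 at D6, with a median log2 ratio of 1.56. Over all 14, without the filter, 5 were higher at D10 and 3 at D6, and the median was -0.03, so the pathway as a whole had no direction. *Rarg* and *Rara*, nuclear receptors for retinoic acid, had 16.2 CPM (14.0 to 18.6) and 68.1 CPM (63.5 to 73.0), and 15.7 CPM (13.5 to 18.1) and 35.7 CPM (32.4 to 39.3). *Crabp2*, which carries retinoic acid to the nucleus, was 4.79-fold (3.40 to 6.89) higher, but had 21.3 and 75.8 CPM in the other cells. Its log2 ratio was 3.15 in place of 2.26 without the cells richest in markers of other cell types, as ranked further on. *Stra8*, a target that starts meiosis in germ cells, had 47.4 CPM (43.6 to 51.4) and 139.8 CPM (133 to 147), a 2.95-fold (2.68 to 3.25) difference, and 0.428 and 20.4 CPM in the other cells. *Rarb* and *Cyp26a1*, the targets most used as readouts, did not pass the filter and had 3.78 and 1.28 CPM and 2.38 and 1.71 CPM. *Rarb*, itself a receptor gene, thus had the opposite direction to *Rarg* and *Rara*, at a ratio of D10 over D6 of 0.339 (0.176 to 0.618). The call of *Stra8* was lost with the mean of single-cell CPM.

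*Stra8* was detected in a minority of cells, a share that depends on depth. At 3000 UMIs per cell it was detected in 6.97% (5.41 to 8.82) of the D6 cells and 17.9% (15.6 to 20.3) of the D10 cells, and in 0.0496% and 1.88% of the other cells. Without thinning it was detected in 12.5% and 30.6% of the pluripotent-like cells, and a cell without a UMI may still hold the transcript. The 193 D10 cells with it had 62.2 CPM (43.5 to 86.1) of *Otx2* against 119 CPM (107 to 133) in the 888 without. Their *Sox2* stood at 254 CPM (215 to 298) against 425 CPM (401 to 450.4) and their *Klf4* at 22.5 CPM (12 to 38.4) against 53.3 CPM (44.9 to 62.8). *Lefty1* was higher in them, at 359 CPM (312 to 412) against 216 CPM (199 to 234). At D6 the 64 cells with *Stra8* also had more *Lefty1*, at 135 CPM (88.5 to 198) against 40.6 CPM (33.2 to 49.2). The same D6 cells had 119.8 CPM (75.9 to 179.7) of *Scx*, a marker of another cell type, against 20.3 CPM (15.2 to 26.6), whose part in the result was not tested, and their *Otx2* was 31.2 CPM (11.5 to 68.0) against 7.81 CPM (4.77 to 12.1), the opposite order to D10. In both groups, cells with *Stra8* held more *Lefty1* and less *Utf1*, the latter at 188 CPM (131 to 259.6) against 383 CPM (359 to 408) at D6 and 611 CPM (549 to 679) against 801 CPM (767 to 836) at D10. *Utf1* was not alone, since *Pou5f1*, *Dppa5a*, *Tdh* and *Klf5* were lower in these cells in both groups too. *Pou5f1* had 307 CPM (234 to 396) against 447 CPM (422 to 474) at D6. At D10 it had 456 CPM (403 to 514) against 568 CPM (539 to 597). The intervals of *Nanog*, *Klf2* and *Zfp42* overlapped at D6.

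Primordial germ cell genes differed in both directions. Of 16 members 15 were assessed, of which *Nanos3*, *Prdm14* and *Rhox9* passed the filter through the D6 cells alone and *Mael* through the D10 cells alone, and 2 were higher at D10 and 7 at D6, with a median log2 ratio of -0.98. *Tfap2c*, an AP-2 factor of germ cell specification, had 111 CPM (105 to 117) and 40.2 CPM (36.6 to 44.0), and was 2.76-fold (2.48 to 3.07) higher at D6. *Nanos3* and *Dnd1*, RNA-binding proteins that protect germ cells, were 5.24-fold (3.40 to 8.38) and 3.40-fold (2.89 to 4.01) higher, and *Kit* 2.84-fold. *Prdm1* (Blimp1), which specifies germ cells, had 29.3 and 15.2 CPM. *Dppa3* and *Prdm14*, already named as naive genes, and *Rhox9* completed the 7. The 2 genes higher at D10 act in meiosis and transposon silencing. *Sycp3*, part of the synaptonemal complex, had 40.7 CPM (37.2 to 44.5) and 108 CPM (102 to 114), and *Mael*, of the piRNA pathway, had 3.94 CPM (2.91 to 5.23) and 16.2 CPM (14.0 to 18.7). *Ddx4* (Vasa) had 29.1 and 31.3 CPM.

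Further meiosis and germline genes were listed after the data were seen. Of 15 members 10 were assessed, 2 of them through the D10 cells alone, of which 4 were higher at D10 and 0 at D6. Beside *Stra8*, *Sycp3* and *Mael*, these were *Usp26*, a germline ubiquitin protease, with 27.3 CPM (24.4 to 30.4) and 78.3 CPM (73.3 to 83.5). *Hormad1*, an axis protein of meiotic chromosomes, had 149 and 216 CPM, and *Dazl* 56.7 and 31.3 CPM. Of the 4 *Rhox* genes, homeobox genes of the X chromosome and likewise listed later, *Rhox6* and *Rhox9*, which passed the filter through the D6 cells alone, were 3.92-fold (3.32 to 4.65) and 3.66-fold (3.1 to 4.33) higher at D6, while *Rhox5* and *Rhox1* differed by 1.08-fold and 1.01-fold. *Sycp3* lost its call with the mean of single-cell CPM.

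Genes of DNA methylation and Polycomb, which set and read repressive marks, mostly differed by less than 2-fold. All 16 members were assessed, of which 2 were higher at D10 and 1 at D6, with a median log2 ratio of 0.11. The 2 were *Dnmt3a* and *Dnmt3b*, and the 1 was *Dppa3*. The Polycomb subunit gene *Phc1*, counted on the core list instead, was past the limit at D10, as given above. *Dnmt1*, which copies methylation at replication, had 149 and 169 CPM, and its partner *Uhrf1* 97.0 and 153 CPM. *Tet1* and *Tet2*, which oxidize methylated cytosine, had 265 and 335 CPM and 79.2 and 76.8 CPM. *Suz12* and *Ezh2*, subunits of Polycomb complex 2, had 619 and 372 CPM and 322 and 353 CPM. The maintenance and removal genes hence differed by less than 2-fold, and the *de novo* enzymes by more.

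Imprinted genes, expressed from 1 parental copy, were mixed. Of 19 members 15 were assessed, 1 of them through the D6 cells alone and 3 through the D10 cells alone, of which 5 were higher at D10 and 1 at D6, with a median log2 ratio of 0.59. Over all 19, without the filter, 6 were higher at D10 and 1 at D6. *Plagl1* (Zac1), a growth regulator, had 32.1 CPM (29.0 to 35.4) and 4.18 CPM (3.09 to 5.52), and was 7.68-fold (5.70 to 10.6) higher at D6. *Peg3*, *Mest*, *Nnat*, *Dlk1* and *Phlda2* were higher at D10, with 134 and 354 CPM, 25.4 and 108 CPM, 5.01 and 21.8 CPM, 2.87 and 28.7 CPM and 42.9 and 99.7 CPM at D6 and D10, and *Phlda2* lost its call with thinned cells. The first 4 of these had 2365, 1567, 530.3 and 757 CPM in the other D10 cells, so that the pluripotent-like cells stood at 15%, 6.91%, 4.12% and 3.79% of their levels, and the part of free RNA in them was not tested. *Phlda2* and *Plagl1* do not share this pattern, with 21.2 CPM of *Phlda2* in the other D10 cells and 9.95 CPM of *Plagl1* in the other D6 cells. Without the cells richest in markers of other cell types, as ranked further on, the log2 ratio of *Plagl1* was -3.90 in place of -2.94. That of *Dlk1* was then 2.68 in place of 3.32.

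Most G2M genes had somewhat higher levels at D10. Of 52 G2M genes all were assessed, of which 3 were higher at D10 and 0 at D6, but 48 had a ratio above 1 and the median log2 ratio was 0.55. *Top2a*, the topoisomerase of dividing cells, had 542 CPM (529 to 556) and 1002 CPM (983 to 1019.8). *Cdc20*, *Nusap1* and *G2e3* passed the limit, at 2.33-fold, 2.11-fold and 3.03-fold, and *Nusap1* lost its call with D10 codes 3, 5 and 6 together. Of 42 S phase genes 41 were assessed, with a median of 0.22, and 1 was higher at D10. This was *Gins2*, a call lost with the mean of single-cell CPM. In the other cells the medians of these lists were 1.19 and 0.69. Among the CDK inhibitors 6 of 7 were assessed, 1 of them through the D10 cells alone, and 2 were higher at D6. *Cdkn1a* (p21) had 417 CPM (405 to 428) and 189 CPM (181 to 197), and *Cdkn2a* 70.6 CPM (66.0 to 75.5) and 34.0 CPM (30.8 to 37.5), a call lost with the mean of single-cell CPM and with thinned cells. *Cdkn1c* had 53.5 and 107 CPM, and 1283 CPM in the other D10 cells. Of 15 assessed p53 targets, 2 were higher at D6, *Cdkn1a* and *Perp*, with a list median of -0.27.

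The assessed genes of energy and sterol metabolism stayed within 2-fold, apart from *Lss*. Of 23 glycolysis and hypoxia genes 22 were assessed and 0 passed the limit in either direction, with a median log2 ratio of 0.04. *Ldha*, lactate dehydrogenase A, had 1718 and 1971 CPM, and the glucose transporter *Slc2a3* had 1261 and 659 CPM. Of 15 cholesterol synthesis genes 15 were assessed, of which *Lss*, with 20.7 and 42.7 CPM, was higher at D10, and the median was 0.34. *Lss* lost its call with the mean of single-cell CPM, with cells thinned to 3000 UMIs and without the cells richest in markers of other cell types. Of 13 assessed genes of the integrated stress response, 1 of them through the D10 cells alone, *Asns*, asparagine synthetase, was 2.34-fold (2.27 to 2.41) higher at D6, with 1221 and 523 CPM, and *Chac1*, which degrades glutathione, was 3.15-fold (2.56 to 3.89) higher at D10, while *Atf4*, the central factor, had 335 and 361 CPM. Of 11 assessed immediate early and heat shock genes 2 were higher at D6, *Jun* and *Egr1*, with 124 and 48.1 CPM and 50.9 and 20.7 CPM.

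Epithelial and matrix genes were compared because pluripotent cells form an epithelium. Of 16 epithelial members 15 were assessed, 1 of them through the D6 cells alone, of which 0 were higher at D10 and 3 at D6, with a median log2 ratio of -0.06. *Cdh1* (E-cadherin) had 61.0 CPM (56.7 to 65.6) and 114 CPM (108 to 119.9), and *Epcam*, an adhesion molecule of pluripotent cells, 426 CPM (414 to 437) and 786 CPM (770.2 to 802). The 3 were *Dsp*, *Krt19* and *Krt8*, with 96.2, 192 and 769 CPM in the other D6 cells, above the 19, 59.5 and 95.2 CPM of the pluripotent-like cells, and *Krt8* lost its call without the called doublets, without the cells richest in markers of other cell types and with D10 codes 3, 5 and 6 together. Of 10 assessed basement membrane genes, 1 of them through the D6 cells alone, 2 were higher at D6, the collagen IV genes *Col4a1* and *Col4a2*, with 85.1 and 18.5 CPM and 42.4 and 10.2 CPM, at 8.04% and 7.74% of the other D6 cells, and both lost their calls with D10 codes 3, 5 and 6 together, as *Col4a1* did without the cells richest in markers of other cell types. Without those cells, as ranked further on, the log2 ratios of *Col4a1* and *Col4a2* were -0.88 and -1.29 in place of -2.20 and -2.05. The laminin genes *Lamc1* and *Lama5* differed by 1.01-fold and 1.30-fold. All 4 gap junction genes, listed after the data were seen, were assessed, and 3 were higher at D6 and 1 at D10. Their median log2 ratio was -1.37, in a range from -1.73 to 1.04. Among them, *Gjc1* and *Gjb5* were 3.01-fold and 2.23-fold higher at D6 and *Gja1* was 2.05-fold higher at D10. *Gjb5* lost its call with thinned cells and the mean of single-cell CPM, and *Gja1* with centred ratios.

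Host genes of small nucleolar RNAs, a list likewise added after the data were seen, were past the limit in 6 of 13 cases, all of them lower at D10. All 13 were assessed, with 0 higher at D10, and had a median log2 ratio of -0.93. *Gas5* had 3329 CPM (3297 to 3362) and 1108 CPM (1089 to 1127), and *Zfas1* 795 CPM (779.6 to 811) and 255 CPM (246 to 265). In the other cells *Gas5* went from 3099.7 to 869.6 CPM and *Zfas1* from 496 to 117 CPM. These genes therefore differed between the whole libraries, and not in the pluripotent-like cells alone. Ribosomal protein genes took 11.6% of the UMIs of the D6 cells and 10.0% of those of the D10 cells.

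The largest ratios were ranked over the 4178 genes that reached 100 UMIs in all and 50 CPM in the higher group, and included genes of no list. The 15 highest at D10 were led by *Prph*, an intermediate filament of neurons, with 3.37 CPM (2.42 to 4.57) and 63.8 CPM (59.3 to 68.5), and by *Calca*, the calcitonin gene, with 14.8 CPM (12.7 to 17.1) and 278 CPM (269 to 288). *Calca* was detected in 3.70% (2.58 to 5.14) of the D6 cells and 47.6% (44.6 to 50.7) of the D10 cells at 3000 UMIs, and in 2.65% of the other D10 cells. They were followed by *Otx2*, *Tnnt1*, *Pou3f1*, *Dnmt3b*, *Tcfl5*, *Nav2*, *Dnmt3a*, *Hes6*, *Psmb10*, *Ankrd35*, *Rasgrp2*, *Lefty1* and *Tuba1a*, at ratios down to 4.97-fold. *Tcfl5*, a helix-loop-helix factor known from the testis, had 11.6 and 93.7 CPM, and *Hes6*, a repressor related to Notch targets, 32.1 and 187 CPM. 5 of the 15 were members of the formative and primed or Nodal lists.

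The 15 highest at D6 were led by *Sp5* and by *S100a13* and *S100a1*, calcium-binding proteins, with 335 and 22.9 CPM and 108 and 10.3 CPM, which were 14.6-fold (12.9 to 16.6) and 10.5-fold (8.72 to 12.8) higher. They were followed by *AA467197*, *Gm48377*, *Ubd*, *2210409E12Rik*, *Aqp3*, *Epp13*, *Sfmbt2*, *Mylpf*, *Col4a1*, *Tbx3*, *Tdh* and *Nr5a2*. *Mylpf*, a myosin light chain of fast muscle, had 1139 CPM (1119.8 to 1158) and 244 CPM (236 to 254), against 24.0 and 34.8 CPM in the other cells, and was detected in 79.1% (76.3 to 81.7) and 37.4% (34.5 to 40.3) of the pluripotent-like cells. *Ubd*, a ubiquitin-like modifier, and *Aqp3*, a water and glycerol channel, had 107 and 15.3 CPM and 72.8 and 11.8 CPM, and under 1 CPM in the other cells of both libraries. Of the 15 genes, *Sp5* and *Col4a1* were higher in the other D6 cells than in the pluripotent-like cells, and the other 13 were lower there.

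Markers of mesenchyme and blood were low in the pluripotent-like cells, whereas some genes on the endoderm and endothelial lists were not. The mesenchyme and tendon genes summed to 69.8 CPM in the D6 cells and 299.7 in the D10 cells, which was 3.35% and 2.48% of the sums in the other cells. Of 14 members 13 were in both files, none of them at 0, and 5 were assessed, through the D10 cells alone, and were higher at D10, among them *Scx*, the tendon factor, with 20.8 and 70.7 CPM, and *Postn*, a matrix protein, with 1.15 and 31.6 CPM. The other D10 cells held 1872 CPM of *Scx* and 1534 of *Postn*. *Twist1*, another of the 5, lost its call without called doublets and without the cells richest in mesenchyme, paraxial mesoderm and endoderm genes. It also lost its call with the mean of single-cell CPM and with thinned cells. Of 16 endoderm genes 4 were assessed, 2 of them through the D6 cells alone, and these 2 were higher at D6. Over all 16, without the filter, 11 were higher at D6 and 3 at D10. The assessed pair, *Sox17* and *Spink1*, had 24.5 and 0.426 CPM and 28.2 and 0.512 CPM at D6 and D10, with 354 and 559.8 CPM in the other D6 cells. The other assessed members, *Apoe*, which encodes a lipid carrier, and *Trap1a*, had 3565 and 2778 CPM and 679.8 and 530.1 CPM, above the 1646 and 367 CPM and 8.87 and 59.1 CPM of the other cells. Through them the endoderm list summed to 4347 and 3327 CPM, which was 142% and 544% of the sums in the other cells. The endothelial list summed to 161 and 197 CPM, or 104% and 191%, nearly all of it from *Pecam1*, which is on the naive pluripotency list too, and *Egfl7*. Blood genes summed to 9.36 and 18.8 CPM, with 0 of 10 assessed, and the neural and endothelial lists had 2 assessed members each and 0 past the limit. Of the 16 PM and somite genes 14 were in both files, 1 at 0 in each group, and 1 was assessed, *Tcf15*, with 28.3 and 47.2 CPM. *Scx*, *Postn*, *Sox17* and *Spink1* were each higher in the pluripotent-like cells of the library whose other cells held more of them, and the part of free RNA in these levels was not tested. When the 10% of cells richest in the mesenchyme, paraxial mesoderm and endoderm lists were left out, 108 of the 109 named genes past the limit kept their call, but *Apoe* and *Trap1a* made up 95% and 89.5% of the UMIs of that ranking at D6 and D10. With a ranking chosen after the data were seen, over the members of the mesenchyme, PM, endoderm, blood, neural and endothelial lists that were higher in the other cells of both libraries, 106 kept it, and *Col4a1*, *Krt8* and *Lss* did not. Of the 109 genes, 7 then moved by over 1.5 times. The log2 ratios of *Sox17* and *Spink1*, themselves in the ranking, stood at -4.21 and -4.13 in place of -5.85 and -5.79, those of *Col4a1* and *Col4a2* at -0.88 and -1.29 in place of -2.20 and -2.05, that of *Dlk1* at 2.68 in place of 3.32, and those of *Crabp2* and *Plagl1* at 3.15 and -3.90 in place of 2.26 and -2.94.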

How the data were processed

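Raw counts of unique molecular identifiers per gene and cell, with a cluster code for each cell, had been deposited by the authors as 1 file per library. Libraries were 10x 3′ v3, and the submitters' processing notes name Cell Ranger and Seurat 3.0. The authors had left out reads that map to several places, cells above their mitochondrial limit and cells at both extremes of depth. The genome build of the counts was not given in the sources used here. Counts were summed over the cells of a code and scaled to 1000000 (CPM). A gene was assessed when a UMI was present in 10% or more of the D6 or of the D10 cells, and 2-fold was the limit for a call. With 1 library per side no test was run. Named genes were members of the lists and the 15 top-ranked genes by ratio for D10 and for D6, among genes that reached 100 UMIs in all and 50 CPM in the higher group. Members and lists were chosen with earlier results of these data known, and the lists of small nucleolar RNA hosts, meiosis, gap junction, Rhox, LIF and LIN28 genes after the counts were seen. Some members of the lists are not reported here by name. Doublets were called with Scrublet in Scanpy 1.11.5 at an expected rate of 6% and kept, and were left out in an alternative. For shares of cells each cell was thinned to 3000 UMIs with a fixed seed. The calls were run on simulated Poisson counts in which 200 genes changed 4-fold and the others did not. The simulation had no spread between cells or libraries, so it cannot speak to calls near 2-fold. Python 3.11.15, NumPy 2.4.6, SciPy 1.17.1, pandas 2.3.3 and Matplotlib 3.10.9 were used. Promoter sequences came from RefSeq, GRCm38.p6. Alternatives left out doublets, shallow cells, the cells richest in other markers or mitochondrial and ribosomal protein genes, centred the ratios, averaged single-cell CPM, thinned cells, changed the filter, asked for the whole interval to lie beyond 2-fold, or widened the D10 group.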

Additional observations from a re-analysis of the deposited data

How the results depend on the processing

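Among genes at least 2-fold higher in the D10 cells (380) and genes at least 2-fold higher in the D6 cells (275), the counts moved to 1590 and 1128 when a UMI in 1% of cells was enough, to 2495 and 1834 with no filter, and to 229 and 166 when the whole interval had to lie beyond 2-fold. The first pair of changes adds low genes, which have wide intervals. Under the other alternatives the counts ran from 356 to 473 at D10 and from 257 to 331 at D6. Of the 109 listed or ranked genes past the limit, 99 to 109 kept their call under these. With the mean of single-cell CPM *Cdkn2a*, *Gins2*, *Gjb5*, *Id3*, *Lss*, *Pcsk6*, *Sox15*, *Stra8*, *Sycp3* and *Twist1* lost it, and with thinned cells *Cdkn2a*, *Gjb5*, *Lin28b*, *Lss*, *Pcsk6*, *Phlda2*, *Sox15* and *Twist1*. *Krt8* and *Twist1* lost it without called doublets, *Twist1* without the cells richest in mesenchyme, paraxial mesoderm and endoderm genes, *Col4a1*, *Krt8* and *Lss* when these cells were ranked, after seeing the data, only by markers higher in the other cells, and *Gja1* and *Tdgf1* with centred ratios. With D10 codes 3, 5 and 6 together, an alternative chosen after seeing the data, *Col4a1*, *Col4a2*, *Fgf4*, *Id2*, *Id3*, *Krt8*, *Nusap1*, *Phlda1* and *Tdgf1* lost it, and the log2 ratio of *Id3* was 0.35 in place of -1.05, of which the cause was not tested. Of all 655 genes past the limit, 533 to 650 kept their call. No paired analysis was possible because each side is 1 library without a replicate number. Depth limits the low genes, as the intervals show, and intervals do not cover the spread between cultures, which these libraries cannot give.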

Other observations

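Y-linked transcripts were nearly absent from the pluripotent-like cells of both libraries. *Ddx3y*, *Eif2s3y*, *Kdm5d* and *Uty* together had 3 UMIs of 12179372 in the D6 cells and 1 UMI of 11727074 in the D10 cells. The other D6 cells held 751 UMIs of these genes, or 18.9 CPM, and the other D10 cells 27 UMIs, or 0.648 CPM. *Xist*, which coats the inactive X chromosome, had 38.5 and 20.8 CPM in the pluripotent-like cells of D6 and D10, and 198 and 18.6 CPM in the other cells. Its antisense partner *Tsix* had 18.7 and 25.2 CPM in the pluripotent-like cells and 2.37 and 4.27 CPM in the other cells. The pluripotent-like cells and the rest of the D6 culture thus differed in these genes, and which line or mixture of lines gave each library is not stated in the sources used here. Whether the other D6 cells included feeder cells, on which the mESCs had been kept, was not tested. The *ScxGFP* transgene had 13 and 21 UMIs in the pluripotent-like cells, and 1733 UMIs in the other D10 cells.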
